A study of Homo sapiens with 6 samples.

Results

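The genes described here make, bind, clear and sense retinoic acid, the active acid of vitamin A, in a melanoma cell line. They are 10 listed genes, namely ALDH1A1, ALDH1A2, ALDH1A3, RDH10, CRABP2, CYP26A1, RARA, RARB, RARG and RXRG, and a gene was taken where an array probe set carried its symbol alone in the platform annotation. This gave 9 genes of the 18417 tested, since the probe set annotated to RARA also carries a second symbol and RARA was not analysed here. WM164 is a BRAF-mutant melanoma line, BRAF being a kinase at the head of the growth-promoting MEK and ERK cascade. Its parent cells, labelled as control and untreated and, per the series title, given the solvent DMSO, were compared with colonies, labelled IDTC and resistant, that were kept for 60 days in medium with PLX4032 (vemurafenib) at 500 nM, a drug that blocks the mutant BRAF kinase. Each group had 3 samples, and the labels do not say whether they were separate cultures or, for the colonies, separate clones. The p-values therefore rest on how far these samples differ within a group, and that may be technical variation alone.

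Retinol enters this pathway as vitamin A and is oxidised in sequence. RDH10 turns retinol into retinal, and the ALDH1A enzymes turn retinal into retinoic acid. CRABP2 carries the acid to the nucleus, where heterodimers of RAR and RXR receptors hold DNA at paired hexamers and switch genes on when the acid binds. CYP26A1 degrades the acid and is itself induced by it, as is RARB, so that both are used as reporters of retinoid signalling. Retinoic acid can slow growth and promote differentiation of melanoma cells in culture, and ALDH1A1 and ALDH1A3 are the retinal-oxidising enzymes most often described in melanoma.

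The promoters of 4 of these genes show the sequence side of that circuit. ALDH1A3 and ALDH1A1 are shown because they had the largest rises among these genes, and RARB and CYP26A1 because, of the 9 listed genes that had RefSeq promoter windows, they alone held a direct repeat of the receptor hexamer spaced by 5 bases. Sequences are RefSeq's on GRCh38.p14, written 5′ to 3′ on the gene's strand. The first 3 are the 250 bases before a transcription start (ALDH1A3, chr15:100879581-100879830, plus strand, ALDH1A1, chr9:72953054-72953303, minus strand, and RARB, chr3:25428013-25428262, plus strand). The fourth is a stretch of 29 bases before the second listed start of CYP26A1 (chr10:93073797-93073825, plus strand). The ALDH1A3 and ALDH1A1 stretches lie directly before the annotated gene, and those of RARB and CYP26A1 lie inside it, downstream of an earlier listed start, with exon positions not used here. Capitals mark matches to a searched motif on either strand.
ALDH1A3: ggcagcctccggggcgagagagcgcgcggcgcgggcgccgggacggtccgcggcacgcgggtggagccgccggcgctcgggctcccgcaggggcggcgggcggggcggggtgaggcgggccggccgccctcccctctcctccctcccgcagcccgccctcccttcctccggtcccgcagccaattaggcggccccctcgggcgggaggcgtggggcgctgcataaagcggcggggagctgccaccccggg
ALDH1A1: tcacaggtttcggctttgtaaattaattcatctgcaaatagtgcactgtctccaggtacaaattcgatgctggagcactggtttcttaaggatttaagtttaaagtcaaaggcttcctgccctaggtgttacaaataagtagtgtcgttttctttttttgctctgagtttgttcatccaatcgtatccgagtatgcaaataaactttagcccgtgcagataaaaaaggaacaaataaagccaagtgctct
RARB: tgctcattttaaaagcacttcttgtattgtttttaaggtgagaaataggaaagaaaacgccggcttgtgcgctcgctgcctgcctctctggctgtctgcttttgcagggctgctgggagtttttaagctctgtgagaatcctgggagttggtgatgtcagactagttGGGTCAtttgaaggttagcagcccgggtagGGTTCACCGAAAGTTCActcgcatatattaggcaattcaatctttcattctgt
CYP26A1: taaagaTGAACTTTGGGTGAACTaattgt

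The motifs searched were the receptor hexamer, spelled AGGTCA or with a first variant GGGTCA, a further variant AGTTCA and a last variant GGTTCA, its direct repeats spaced by 1, 2 or 5 bases, the AP-1 site TGANTCA and the E-box CACGTG that MITF can bind, all on both strands, and each direct repeat also counts as 2 hexamers. A repeat spaced by 5 was present in 0.0883% of 35116 RefSeq windows of 300 bases (250 before to 50 after a start) and in 2 of the 16 windows of the listed genes. In RARB it is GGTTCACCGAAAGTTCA, from -53 to -37 relative to the start, the classical retinoic acid response element of this gene. In CYP26A1 it lies on the opposite strand from -90 to -74. A hexamer alone was common, being present in 38.6% of all windows and in 8 of these 16. The AP-1 site had a share of 7.71% and the E-box of 7.26% of all windows, and they were present in 0 and 2 of the 16. No searched motif occurs in the ALDH1A3 and ALDH1A1 windows, which differ in base composition, with 82.4% G and C in the 250 bases of ALDH1A3 and 38.4% in those of ALDH1A1. The median over all windows was 58%. A match is a description of letters and does not show binding.

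In the colonies the retinal-oxidising enzymes ALDH1A3 and ALDH1A1 and the receptor RARG rose. The retinol-oxidising enzyme RDH10 and the receptor RXRG fell, while ALDH1A2, CRABP2, CYP26A1 and RARB did not pass the test. In bulk RNA, fewer cells that express a gene and less of its RNA per cell cannot be told apart. Values are deposited log2 expression values, differences are colony minus parent, and a gene passes at a Benjamini-Hochberg adjusted p under 0.05 over all genes in limma. By that rule 5 of the 9 genes passed, 3 of them higher and 2 lower. Of all genes tested 43.8% passed, 20.9% as higher and 22.9% as lower, so the count itself lies close to the background. The 9 differences had a median of 0.02, and that of all genes was 0.00. By size, 3 of the 9 genes passed with at least a 2-fold difference, which 5.41% of all genes did. All 4 genes above the median expression of all genes passed, where 68.0% of such genes did, and 1 of the 5 below it passed, where 19.5% did.

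**Figure D1:**
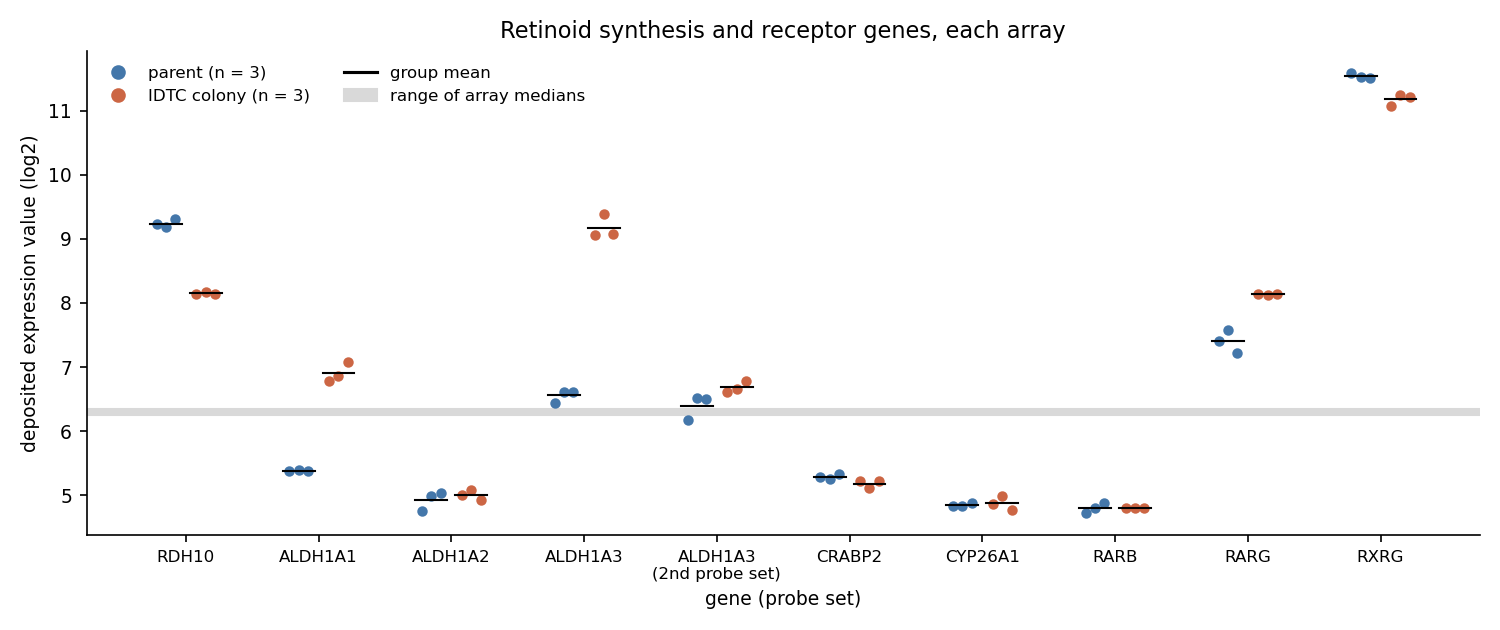
Deposited log2 expression value (vertical axis) of each retinoid gene on each of the 3 parent (blue) and 3 colony (orange) arrays, with group means as black lines and the range of the 6 array medians as a grey band. The groups stand far apart for ALDH1A3, ALDH1A1 and RDH10, and ALDH1A2, CRABP2, CYP26A1 and RARB lie below the grey band in both groups.

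RDH10, the membrane-bound dehydrogenase that starts the conversion of retinol, was lower in the colonies. Parent arrays 1 to 3 read 9.23, 9.18 and 9.31, and colony arrays 1 to 3 read 8.13, 8.17 and 8.15. Every colony array lay about 1 log2 unit below every parent array, and the groups did not overlap. The difference was -1.09 ± 0.05 (log2 difference ± SE, n = 3 arrays per group, 95% interval -1.20 to -0.98, limma adjusted p = 2.3e-06), a 2.13-fold lower value. Genes around it on chromosome 8 fell too. Of its 50 nearest neighbours above the median expression, 31 were lower and 9 higher, with a median difference of -0.43. With the neighbourhood's median level subtracted as planned, RDH10 differed by -0.79. With that median taken after centring each gene, a setting chosen after seeing the data, RDH10 differed by -0.68. The part of the neighbourhood in the result was not otherwise tested.

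ALDH1A3, an enzyme that oxidises retinal to retinoic acid, had the largest rise among these genes by its main probe set. Its main probe set (7986446) read 6.44, 6.61 and 6.61 on the parent arrays and 9.06, 9.39 and 9.07 on the colony arrays. All 3 colony arrays stood more than 2 log2 units above all 3 parent arrays. The difference was 2.62 ± 0.10 (95% interval 2.39 to 2.85, limma adjusted p = 1.1e-06), a 6.15-fold rise, and it ranked 75th by absolute difference among all genes. The parent mean, 6.56 ± 0.10 (SD, n = 3), lay just above the array medians (6.25 to 6.34). No background estimate was at hand to test whether the parent cells express the gene. The 30 expressed neighbours found for ALDH1A3 had a median difference of 0.05.

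A further ALDH1A3 probe set gave a different size. Probe set 7986444, annotated to 1 accession where the main one has 7, read 6.18, 6.52 and 6.49 in parent cells and 6.62, 6.66 and 6.78 in the colonies. The groups did not overlap there either, but the gap was narrow. The difference was 0.29 ± 0.10 and missed the threshold (limma over all probe sets, adjusted p = 0.0506). The mean of both probe sets differed by 1.45, and its call held (limma adjusted p = 6.8e-06). On that measure ALDH1A3 no longer stood above ALDH1A1, at 1.53.

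ALDH1A1, a second retinal-oxidising enzyme and a frequently used marker of cells with high aldehyde dehydrogenase activity, also rose. It read 5.37, 5.39 and 5.37 on the parent arrays, all below the array medians, and 6.78, 6.86 and 7.08 on the colony arrays, all above them. The groups did not overlap. The difference was 1.53 ± 0.08 (95% interval 1.35 to 1.71, limma adjusted p = 4.0e-06), or 2.88-fold. Since the parent level was not shown to be above background, this is the difference of the deposited values. Its expressed neighbours on chromosome 9 had a median difference of 0.07.

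ALDH1A2, the main retinoic acid source of the early embryo, did not pass the test. Parent arrays read 4.76, 4.99 and 5.04 and colony arrays 5.01, 5.09 and 4.92. All 6 values lay below the array medians and the groups overlapped. The difference was 0.08 ± 0.08 (95% interval -0.12 to 0.27, limma adjusted p = 0.523). Of the 3 ALDH1A genes, ALDH1A3 and ALDH1A1 had intervals above 0, and that of ALDH1A2 included 0.

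**Figure D2:**
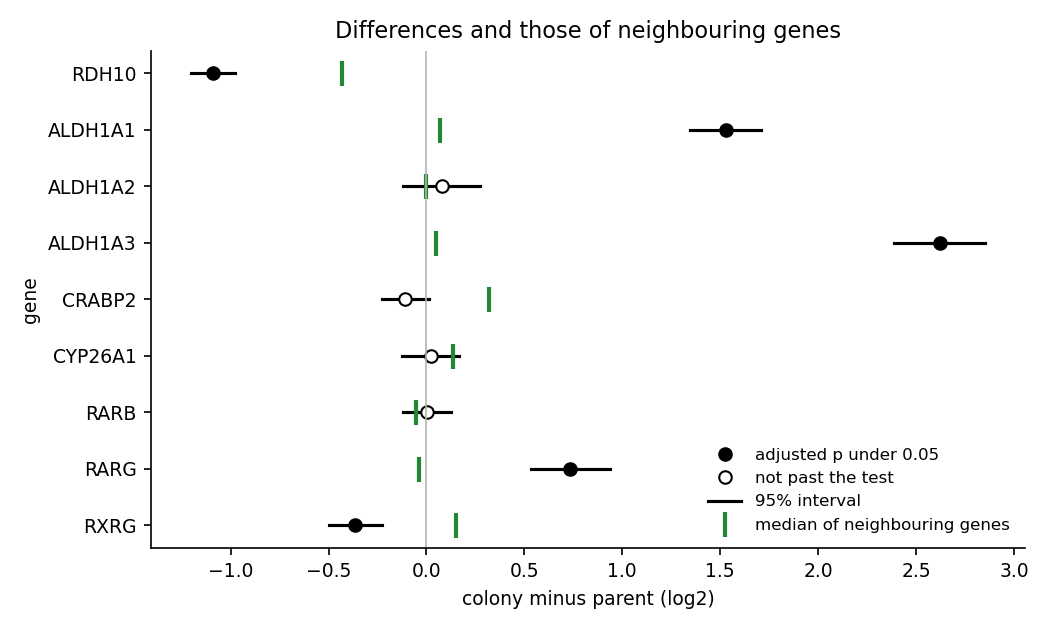
Colony minus parent difference on the log2 scale (horizontal axis) of the 9 genes, with 95% intervals from limma, filled points for an adjusted p under 0.05, and green ticks for the median difference of up to 50 neighbouring expressed genes. The tick lies on the same side as the point and well away from 0 for RDH10 (-0.43), and near 0 for ALDH1A3 (0.05) and ALDH1A1 (0.07). For CRABP2 (0.32) and RXRG (0.15) it lies on the side opposite to the point.

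CRABP2, which delivers retinoic acid to RAR receptors, was dim in both groups. It read 5.29, 5.25 and 5.34 in parent cells and 5.22, 5.11 and 5.22 in the colonies. The groups did not overlap, as was so for 6 of these 9 genes and for 50.8% of all genes, but the gap between them was narrow. The difference of -0.11 ± 0.05 (95% interval -0.23 to 0.01) did not pass (limma adjusted p = 0.14). Of its 50 expressed neighbours on chromosome 1, 31 were higher and 4 lower, with a median difference of 0.32.

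CYP26A1, the retinoic acid hydroxylase whose promoter repeat is printed above, did not pass either. Parent arrays read 4.84, 4.83 and 4.88, and colony arrays 4.87, 4.98 and 4.77. The colony values spanned the parent values, and all 6 lay below the array medians. The difference was 0.02 ± 0.06 (95% interval -0.12 to 0.17, limma adjusted p = 0.815), with no stable sign, since it became -0.0033 with arrays shifted to a common median.

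RARB, a retinoic acid receptor gene that is also a target of the acid, was equally dim. Parent arrays read 4.72, 4.81 and 4.88, and all 3 colony arrays carried the same deposited value, 4.81. That value also stood on parent array 2. The SD of 0 in the colonies is thus a property of the deposited values rather than a measure of precision, and 5595 of the genes tested had at least 1 repeated value among the 6 arrays. The difference was 0.00 ± 0.05 (95% interval -0.12 to 0.12, limma adjusted p = 0.988), and its sign turned after quantile normalization (-0.013) and with arrays shifted to a common median (-0.024).

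The intervals of the 2 genes with the repeat thus ended at 0.17 for CYP26A1 and 0.12 for RARB on the deposited scale, beside lower ends of 2.39 for ALDH1A3 and 1.35 for ALDH1A1. For genes this dim, the deposited scale can compress a change, and it was not tested whether either probe set lay above background.

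RARG, the retinoic acid receptor best known from skin, rose. It read 7.41, 7.57 and 7.22 on the parent arrays and 8.14, 8.13 and 8.13 on the colony arrays. The parent arrays varied more than the colony arrays, and the lowest colony value lay above the highest parent value. The difference was 0.73 ± 0.09 (95% interval 0.53 to 0.94, limma adjusted p = 2.7e-04), or 1.66-fold. Its neighbours on chromosome 12 had a median difference of -0.04.

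RXRG, a retinoid X receptor that is restricted to few tissues and is used as a marker of a neural-crest-like drug-tolerant state in melanoma, fell. It read 11.59, 11.52 and 11.51 in parent cells and 11.08, 11.24 and 11.21 in the colonies. Each colony array lay below each parent array. The difference was -0.36 ± 0.06 (95% interval -0.50 to -0.23, limma adjusted p = 0.00132), a 1.29-fold lower value. Of its 50 expressed neighbours on chromosome 1, 28 were higher and 8 lower, with a median difference of 0.15. With the neighbourhood's median level subtracted as planned, RXRG differed by -0.51. With the centred neighbourhood median subtracted, a setting chosen after seeing the data, RXRG differed by -0.56.

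**Figure D3:**
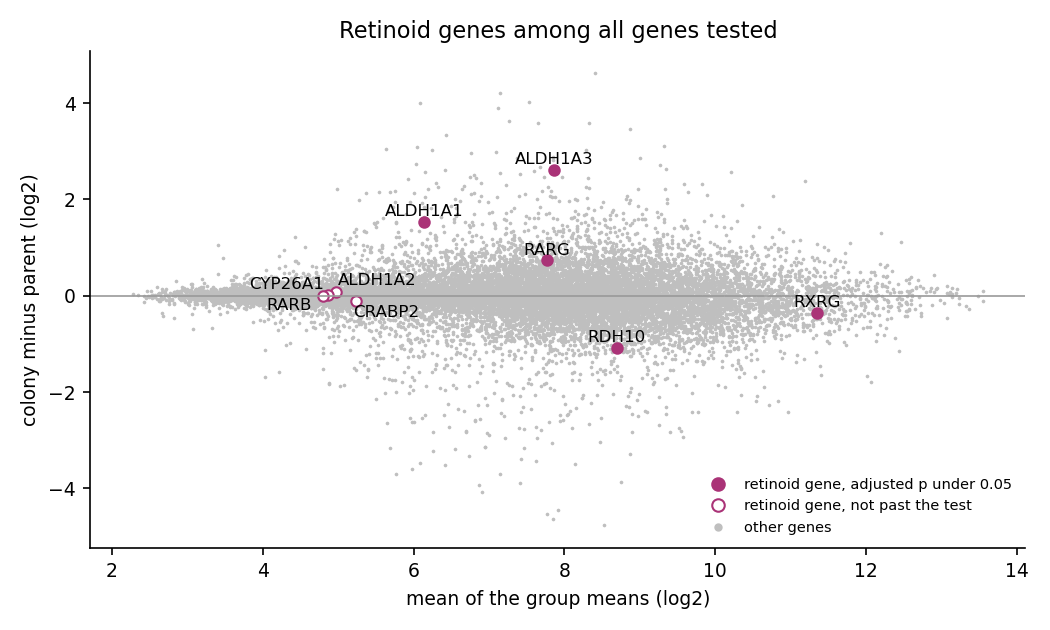
Colony minus parent difference (log2, vertical axis) against the mean of the group means (log2, horizontal axis) for all 18417 genes (grey) and the retinoid genes (purple, filled where the adjusted p was under 0.05). ALDH1A3 and ALDH1A1 stand above most genes of like level, and RARB, CYP26A1, ALDH1A2 and CRABP2 lie among the dim genes, where differences were small.

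The wider retinoid pathway went both ways. Of 108 further genes in 7 lists, 93 were measured, and limma gave 25 as higher, 19 as lower and 49 as not passing. That is 47.3% called beside 43.8% of all genes. Their median difference was -0.01. The other genes of the lists, among them CRABP1 and FABP5, were not analysed here.

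Of 11 measured retinoid X receptors and partners 5 rose and 3 fell, or 72.7% called, and 9 of the 11 were above the median expression, where 68.0% of all genes passed. RXRB, a retinoid X receptor found in most tissues, rose by 0.51 ± 0.05 (limma adjusted p = 1.6e-04), and RXRA differed by 0.15 ± 0.08 (limma adjusted p = 0.188). RXRB and RXRG thus had differences of opposite sign. Among the partners, the thyroid hormone receptor gene THRA rose by 1.24 ± 0.06, from 7.69 to 8.93, while its paralog THRB changed by -1.09 ± 0.04, from 7.69 to 6.60. PPARA, a fatty acid sensor, rose by 0.87 ± 0.06.

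Genes that interconvert retinol and retinal mostly did not pass, with 2 higher, 3 lower and 11 not passing among 16 measured. That is 31.2% called beside 43.8% of all genes. DHRS3, which turns retinal back into retinol and is a retinoic acid target, rose by 0.82 ± 0.07, from 6.36 to 7.19 (limma adjusted p = 4.2e-05). RDH12, a retinal reductase known from photoreceptors, rose by 1.16 ± 0.07, from a parent mean of 5.94 that lay below the array medians. RDH11, another retinal reductase, changed by -0.48 ± 0.05. Only 3 of the 16 genes were above the median expression, and of all genes at or below it 19.5% passed.

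Genes of uptake, storage and carotenoid cleavage included 3 that rose, 1 that fell and 9 that did not pass among 13 measured. That is 30.8% called beside 43.8% of all genes, and 3 of the 13 were above the median expression. At or below it 19.5% of all genes passed. RLBP1, which binds retinal in the visual cycle, changed by -1.01 ± 0.05, from 9.89 to 8.88. TTR, which carries thyroxine and the retinol-binding protein in blood, rose by 1.14 ± 0.10, from 5.33 to 6.47. RPE65, the retinoid isomerase of the visual cycle, rose by 0.59 ± 0.10 and stayed below the array medians in both groups, at 4.40 and 5.00. STRA6, a membrane receptor for retinol uptake, differed by -0.11 ± 0.10 and did not pass (limma adjusted p = 0.418).

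Retinoic acid binding and clearance beyond the genes above was measured by 4 dim genes. CYP26B1, the hydroxylase paralog of CYP26A1, fell by 0.28 on the log2 scale (SE 0.05, limma adjusted p = 0.00259), from 6.36 to 6.08. The other 3 did not pass, so 25% of the 4 were called beside 43.8% of all genes. Of the 4 genes 0 were above the median expression, and of all genes at or below it 19.5% passed.

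Among the other aldehyde dehydrogenases, which act on substrates other than retinal for the most part, 6 of 16 rose and 3 fell. That is 56.2% called beside 43.8% of all genes, and 9 of the 16 were above the median expression, where 68.0% passed. ALDH1L2, a mitochondrial folate enzyme, changed by -2.63 ± 0.08, from 7.33 to 4.70. ALDH6A1 (0.79 ± 0.05), of valine breakdown, and ALDH4A1 (0.77 ± 0.06), of proline breakdown, rose.

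Coregulators of the receptors were 5 higher, 4 lower and 6 not passing among 15 measured, 14 of them above the median expression. That is 60% called, beside 68.0% of all genes above that median and 43.8% of all genes. NRIP1, a corepressor that binds hormone-bound receptors and is induced by retinoic acid in several cell types, rose by 1.59 ± 0.04, from 8.24 to 9.83 (limma adjusted p = 3.3e-07). The acetyltransferase genes KAT2B and CREBBP rose by 1.12 ± 0.05 and 0.39 ± 0.06, whereas EP300, the paralog of CREBBP, changed by -0.25 ± 0.04 (limma adjusted p = 0.0026). PRAME, a melanoma antigen that can repress RAR signalling, was high in both groups, at 10.49 and 10.54, and did not pass (0.05 ± 0.04, limma adjusted p = 0.387).

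Retinoic acid response genes, a list that shares DHRS3, CYP26B1, STRA6 and LRAT with the lists above, split evenly, with 5 higher, 5 lower and 12 not passing among 22 measured and a median of -0.05. PLAAT4, a phospholipid-modifying enzyme induced by retinoids and also by interferons, rose by 1.97 ± 0.13, from 5.63 to 7.60. NAV2, a cytoskeletal gene found as retinoic acid induced in neuroblastoma cells, rose by 1.62 ± 0.05, from 6.79 to 8.41. ARHGAP29, a regulator of small GTPases, changed by -2.86 ± 0.12, from 8.40 to 5.54. The call rate of this list was 45.5%, beside 43.8% of all genes. Of its 22 genes 8 were above the median expression, where 68.0% of all genes passed, and 19.5% did at or below it.

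**Figure D4:**
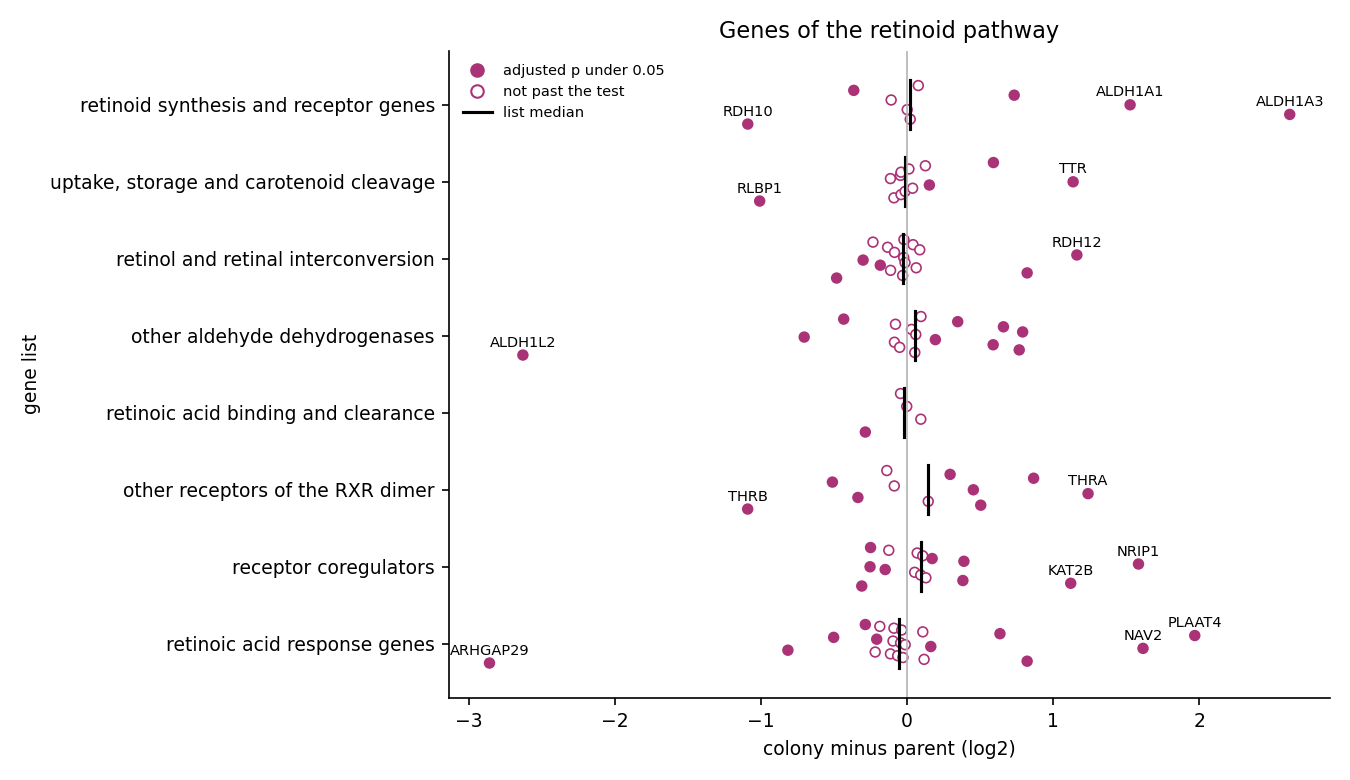
Colony minus parent difference (log2, horizontal axis) of each measured gene in the retinoid gene set and 7 further pathway lists (rows), filled where the adjusted p was under 0.05, with the list median as a black line. Genes that differ by at least 1 log2 unit are named, and every list median lies between -0.05 and 0.15.

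Marker genes were read to check the labelled cell type. MITF (11.14 in parent cells), SOX10 (10.73), PMEL (12.52) and S100B (11.02) stood far above the array medians, whereas the pigment enzyme gene TYRP1 (4.69) lay below. Of the 7 melanocyte and neural crest markers measured, 3 rose and 2 fell in limma. That is 71.4% called beside 43.8% of all genes, and 6 of the 7 were above the median expression, where 68.0% passed. SOX10 (0.42), PMEL (0.33) and S100B (0.57) were higher, MLANA, a melanosome protein gene, changed by -1.45 ± 0.04 (limma adjusted p = 4.1e-07) and TYRP1 by -0.23, and MITF (0.00) and TYR (-0.12) did not pass. Of markers of other cells, 0 of 8 keratinocyte and 0 of 7 endothelial genes passed in limma, and at an unadjusted p under 0.05 0 and 0 did. That is a statement about change and not about level. KRT14 (7.15 and 7.02), KRT10 (6.54 and 6.49) and CLDN5 (6.8 and 6.8) lay above the array medians in both groups, and the rest of these below. In the fibroblast and in the leukocyte list 2 of 8 markers were above the median expression. At or below it 19.5% of all genes passed, and of all genes 43.8% were called, 22.9% as lower. Of fibroblast markers LUM (from 8.11 to 7.76) and PDGFRA (from 6.35 to 5.77) fell, or 2 of 8 (25%). COL1A1, at 7.37 and 7.58, did not pass (limma adjusted p = 0.0814). Leukocyte markers fell in 3 of 8 (37.5%). The 3 were CD68 (from 11.05 to 9.78), a lysosomal protein gene of macrophages that other cells also express, LYZ (-2.35) and FCER1G (-1.44), and the other 5 did not pass. The summed linear level of the leukocyte markers was 2808 to 2902 on parent arrays and 1319 to 1368 on colony arrays, a sum to which CD68 contributed most. Their defining gene PTPRC was at 3.67 and 3.71, below the array medians, as were CD3E, CD14 and ITGAM in both groups. TYROBP lay above the array medians in both groups, at 7.86 and 7.93. LYZ (7.76) and FCER1G (7.01) did so in parent cells but not in the colonies, at 5.41 and 5.57. The part of other cells in the retinoid differences was not tested.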

How the data were processed

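WM164 RNA from 3 parent and 3 IDTC colony samples was hybridised to Affymetrix whole-transcript arrays in a single colour. The authors deposited log2 expression values per probe set, made with Affymetrix Expression Console per the submitters' processing notes. For background correction, summarisation and normalization the method is not given in the sources used here. Groups were taken from sample titles. No batch or scan date was given, so batch and group cannot be told apart.

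Of 33297 probe sets, 19460 carried 1 gene symbol, 1754 several and 12083 none. The brightest probe set by mean stood for each of 18417 genes, with no filter. Groups were compared in limma 3.58.1 under R 4.3.3 (lmFit, eBayes, 2-sided, Benjamini-Hochberg over all genes, threshold 0.05), after a test on simulated data. Neighbours are the 25 nearest genes above the median expression on each side on the chromosome, in RefSeq order (GRCh38.p14, used for 18389 genes). The number of arrays limits precision.

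Named pathway genes are the 3 in each list with the largest difference past the test, plus 7 fixed ones, and other names were chosen after values were seen. The genes, lists and alternatives were chosen with earlier results of these data known.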

Additional observations from a re-analysis of the deposited data

How the results depend on the processing

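The 5 calls (ALDH1A1, ALDH1A3 and RARG higher, RDH10 and RXRG lower) held under both other scalings. The fit over all probe sets read the same brightest probe set of each gene again, so it could hardly change these calls. The second ALDH1A3 probe set missed the threshold there (0.29, limma adjusted p = 0.0506). The 5 calls also held with trend and robust eBayes and with each array left out. Averaging probe sets per gene kept them too, but of these genes it changed the value of ALDH1A3 only. With the neighbourhood median subtracted, the calls of ALDH1A3, RARG, RDH10 and RXRG held. That setting could not test ALDH1A1, since nothing was subtracted from genes not above the median expression. With only genes above the median expression tested, ALDH1A1 was not among them and 4 calls remained. The sign turned for 3 genes that did not pass. CYP26A1 was at -0.0033 and RARB at -0.0244 with arrays shifted to a common median, and RARB at -0.0125 after quantile normalization. Leaving out 1 array gave ALDH1A2 from -0.0082 to 0.1324, CYP26A1 from -0.0321 to 0.0758 and RARB from -0.0387 to 0.0409. The cause was not tested. Subtracting the neighbourhood median as planned, of levels, put RDH10 at -0.79 and RXRG at -0.51.

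Same-numbered samples did not deviate together (correlations of -0.089, -0.059 and -0.010 across genes). No pairing by number was seen, which does not show that the samples were handled unpaired. With a replicate block 5 of the 9 retinoid genes were called, as without it, and 40 of the 93 pathway genes in place of 44. Dim probe sets limit what can be said of ALDH1A2, CRABP2, CYP26A1 and RARB.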

Other observations

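Genes with the same promoter repeat as RARB and CYP26A1, a receptor hexamer repeated at a spacing of 5 bases, were few. Of 29 such genes, RARB and CYP26A1 included, 15 were measured. Without RARB and CYP26A1, 4 of 13 passed in limma, or 30.8%, with 3 higher, 1 lower and a median difference of 0.02. Of all genes 43.8% passed, and 7 of the 13 were at or below the median expression, where 19.5% of genes did. The 3 that rose, named after their values were seen, were HROB (0.33), a DNA repair helicase partner, COL24A1 (0.32), a collagen, and PDC (0.27), known from photoreceptors. COL24A1 (5.51 and 5.83) and PDC (3.62 and 3.89) lay below the array medians in both groups. The 1 that fell was CYB5R2, a cytochrome reductase, which differed by -2.67 ± 0.05 (log2 difference ± SE, n = 3 arrays per group). Among 26 measured genes with the repeat at a spacing of 1 base, 8 rose and 8 fell, or 61.5% called. Among 6 with a spacing of 2, 2 rose and 1 fell, or 50%. Of the 26 genes 8 were at or below the median expression, and of the 6 genes 4 were. Above that median 68.0% of all genes passed, so these shares are not read as a result about the repeats.

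The genes whose profile over the 6 arrays lay nearest to that of ALDH1A3, by root mean square distance after centring each gene, were the histone gene H2BC21 (distance 0.10), FAXDC2, a hydroxylase-like gene (0.11), and EXTL1, a heparan sulphate glycosyltransferase gene (0.12). They rose by 2.57 ± 0.09, 2.59 ± 0.06 and 2.53 ± 0.08. Nothing about shared function or control follows from this likeness.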
